A study of Mus musculus with 3 samples.

Results

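Killer lectin-like receptors are surface receptors best known from natural killer (NK) cells, and subsets of T cells carry them as well. The transcripts of 6 of these receptor genes, Klrk1, Klrd1, Klrc1, Klrc2, Klre1 and Klrg1, were followed in T cells that had been sorted from kidney and spleen of MRL/lpr mice, a model of lupus. The genes were chosen by symbol, and all 6 were among the 32285 gene rows of the kidney matrix and of the spleen matrix. MRL/lpr mice carry the lpr mutation of Fas and develop lymphoproliferation and nephritis. All animals carried loxP-flanked Ezh2, the gene of the histone methyltransferase of Polycomb repressive complex 2. The KO mice also carried a tamoxifen-inducible Cre recombinase, Cre/ERT2, driven by the Cd4 promoter, and the WT mice were littermates without Cre. Both genotypes were given oral tamoxifen at 300 mg/kg on 3 days a week every other week, from 10 weeks of age (preventative) or 14 weeks (therapeutic) until 24 weeks. Which of the 2 schedules a given mouse followed is not given by the labels. The Cre strain had been backcrossed for 6 generations. Cells of 10 floxed and 9 Cre-carrying animals were sorted with antibodies to CD3, TCRβ, CD4 and CD8a, and the deposited key of antibody tags lists 9 mice. Cells of 2 KO mice (KO1, KO2) and 3 WT mice (WT1, WT2, WT3), each with a kidney and a spleen library, could be assigned and were compared here.

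Of 13355 assigned cells, 13337 passed the cell filter. Each cell was placed in a class by its own transcripts: 12722 cells had no UMI (unique molecular identifier, 1 counted transcript) of Cd8a or Cd8b1 and are called CD8-negative, and 615 cells had at least 1 and are called CD8-positive. The class is a statement about detected transcripts, not about the sort gate. Between 37.1% and 77.8% of CD8-positive cells per library also had a Cd4 UMI, and 8137 of the CD8-negative cells had one. UMIs were summed per mouse, organ and class, and levels are given as CPM (UMIs per 1e6 of the summed library, with TMM scaling). In such a sum, more receptor-positive cells and more transcript per positive cell cannot be told apart. The CD8-negative sums held between 692991 UMIs (kidney KO2, 184 cells) and 9585980 UMIs (spleen WT1, 2305 cells). The CD8-positive sums held between 149699 UMIs (kidney WT3, 25 cells) and 680996 UMIs (spleen KO2, 144 cells) among the 9 sums that entered the tests, and spleen WT2, with 18 CD8-positive cells, was left out of them.

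The receptors fall into families by role. NKG2D, the product of Klrk1, is an activating receptor that signals through the adaptors DAP10 (Hcst) and DAP12 (Tyrobp) and binds stress-induced ligands of the Raet1 and H60 families. CD94, the product of Klrd1, pairs with a member of the NKG2 family: with NKG2A (Klrc1) it forms an inhibitory receptor and with NKG2C (Klrc2) an activating one, and both bind the non-classical class I molecule Qa-1 (H2-T23). KLRE1, the product of Klre1, pairs with KLRI1 or KLRI2, products of Klri1 and Klri2. KLRG1 is an inhibitory receptor for E-cadherin (Cdh1) and other cadherins that marks differentiated effector T cells and a subset of regulatory T cells.

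All 6 genes lie on mouse chromosome 6 (GRCm38.p6). Klre1 (129559365 to 129585828), Klrd1 (129588092 to 129598775), Klrk1 (129610323 to 129623903), Klrc2 (129649602 to 129660737) and Klrc1 (129666015 to 129682852) lie side by side within 123 kb of the NK gene complex. Klrg1 (122270596 to 122282833) lies 7.28 Mb away from that group.

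The promoter windows are shown because 5 of the genes are neighbours and were each higher in CD8-positive than in CD8-negative cells, as described below. RefSeq windows of 250 bases before to 50 bases after a transcript start (GRCm38.p6) were at hand for 4 of the 6 genes, and 1 window is printed for each. Capitals mark 2 short motifs searched on both strands, the Runt-domain core that RUNX factors bind, which reads TGTGGT on 1 strand and ACCACA on the other, and a T-box site that T-bet and EOMES bind, which reads GTGTGA on 1 strand and TCACAC on the other. Hits of the 2 motifs can overlap, and none of those printed do.
Klre1, chr6:129577963-129578262, plus strand: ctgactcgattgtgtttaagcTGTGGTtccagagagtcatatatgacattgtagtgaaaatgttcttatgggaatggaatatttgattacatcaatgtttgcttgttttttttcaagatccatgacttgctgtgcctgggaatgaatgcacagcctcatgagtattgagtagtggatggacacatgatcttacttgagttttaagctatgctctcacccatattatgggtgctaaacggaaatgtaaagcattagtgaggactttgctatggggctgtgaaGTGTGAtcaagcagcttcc
Klrk1, chr6:129623815-129624114, minus strand: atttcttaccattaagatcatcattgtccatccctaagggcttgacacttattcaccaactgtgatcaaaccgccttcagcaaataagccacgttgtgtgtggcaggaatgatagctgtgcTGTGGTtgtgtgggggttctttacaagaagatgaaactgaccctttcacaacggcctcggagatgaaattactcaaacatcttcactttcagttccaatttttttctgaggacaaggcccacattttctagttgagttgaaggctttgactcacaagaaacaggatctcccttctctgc
Klrc2, chr6:129660547-129660846, minus strand: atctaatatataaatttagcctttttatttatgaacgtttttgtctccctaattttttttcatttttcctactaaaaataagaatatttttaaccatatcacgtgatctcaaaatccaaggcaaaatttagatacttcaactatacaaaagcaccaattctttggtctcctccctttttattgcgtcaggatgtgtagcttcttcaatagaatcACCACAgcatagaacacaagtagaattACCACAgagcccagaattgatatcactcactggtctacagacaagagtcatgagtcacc
Klrc1, chr6:129678924-129679223, minus strand: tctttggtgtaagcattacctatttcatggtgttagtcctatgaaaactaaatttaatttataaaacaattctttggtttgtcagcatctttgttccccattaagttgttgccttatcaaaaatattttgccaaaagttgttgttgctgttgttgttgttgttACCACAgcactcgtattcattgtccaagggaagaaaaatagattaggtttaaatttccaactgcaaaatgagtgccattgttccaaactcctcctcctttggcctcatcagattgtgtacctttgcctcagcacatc
Each of the 4 printed windows held a Runt-domain core: 229 bases before the start in Klre1, 129 before it in Klrk1, 36 and 9 before it in Klrc2, and 87 before it in Klrc1. The Klre1 window also held a T-box site 31 bases after the start. A further Klre1 window, of a start further along (chr6:129578036-129578335), held no Runt-domain core and has the same T-box site 42 bases before its start, and a further Klrc2 window (chr6:129660507-129660806) has the same 2 Runt-domain cores 76 and 49 bases before its start. Of all 32544 promoter windows of the same length, 16.7% held the Runt-domain core and 14.3% the T-box site. A match describes letters and is not a measured binding site.

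The targeted gene was examined first. Ezh2 in CD8-negative cells stood at 75.1 and 52.1 CPM in the kidneys of KO1 and KO2, and at 94.9, 164 and 138 CPM in those of WT1, WT2 and WT3. In the spleens it stood at 51.1 and 55.5 CPM in the KO mice and at 74.8, 176 and 162 CPM in the WT mice. In this class the genotypes did not overlap in either organ, as for 34.7% and 40.2% of all genes in kidney and spleen, and among the WT mice WT1 came closest to the KO values. In CD8-positive cells they overlapped in both organs, with 80.5 to 86.5 CPM in KO and 73.2 to 213 CPM in WT kidneys, and 67.8 to 105 CPM in KO and 71.0 to 230 CPM in WT spleens. The libraries count the start of each transcript, and the sources used here do not name the exons that Cre removes, so this level does not check the deletion. WT1 also stood apart from WT2 and WT3 in the receptors described next, and values without it are given beside the KO to WT differences. No barcode was shared between the libraries compared here. Markers of T cells were present throughout. The summed level of 7 such genes (Cd3e, Cd3d, Cd3g, Trac, Trbc1, Trbc2 and Cd4) was 3057 to 4921 CPM in the 10 CD8-negative sums. Among these 7 only Cd4 sets CD4 T cells apart from other T cells, and it stood at 253 to 486 CPM. Of the 8 NK cell markers some were at or near 0: Ncr1 had 1 UMI and Klrb1c 7 UMIs in all CD8-negative cells, and Klra8 and Klra4 had none. Klra8 and Klra4 had none in CD8-positive cells either, so whether they can be detected in these libraries is not known. Others of the list were seen in every CD8-negative sum, Tyrobp at 5.86 to 41.4 CPM and Fcer1g at 4.83 to 21.4 CPM. The summed level of all 8 NK cell markers, which include the shared adaptors Tyrobp and Fcer1g, was 36.8 to 64.3 CPM in KO and 18.5 to 40.5 CPM in WT kidneys, and 20.4 to 21.4 CPM in KO and 14.0 to 23.5 CPM in WT spleens. That of 6 γδ T cell markers was 9.19 to 15.3 and 4.10 to 22.1 CPM in KO and WT kidneys, and 7.73 to 10.6 and 4.59 to 12.5 CPM in KO and WT spleens. The part of such cells in the receptor levels was not tested. Kidney tubule markers stood at 119 to 1701 CPM in the kidneys of WT mice and at 1.91 to 4.59 CPM in those of KO mice.

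The first comparison asked in which T cells the receptors were carried. Over the pairs of both organs, CD8-positive cells held more transcript of 5 receptors than CD8-negative cells of the same mouse and organ. They did not differ past the threshold in Klrg1. For Klrc2 and Klre1 every kidney was higher, while spleen levels were low in both classes and not higher in each mouse. In the kidney, Klrk1 stood at 90.1, 89.9, 112, 46.1 and 42.5 CPM in the CD8-positive cells of KO1, KO2, WT1, WT2 and WT3. In the CD8-negative cells of the same kidneys it stood at 15.8, 6.13, 44.1, 11.8 and 7.57 CPM. Every mouse was higher in the CD8-positive class.

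Klrc1, the inhibitory NKG2A chain, stood at 326, 151, 281, 215 and 188 CPM in the CD8-positive kidney cells of the same mice and at 33.0, 22.97, 77.0, 20.5 and 3.15 CPM in the CD8-negative ones. Klrd1, its CD94 partner, stood at 146, 118, 166, 55.4 and 66.8 CPM against 10.0, 12.3, 71.2, 16.9 and 12.6 CPM. For both genes each mouse's CD8-positive value lay above its CD8-negative value, and the lowest WT3 and WT2 values of CD8-positive Klrd1 lay below the CD8-negative value of WT1. At least 1 UMI of the 5 receptors other than Klrg1 was seen in 52.4%, 40.0%, 56.0%, 39.2% and 24.0% of CD8-positive kidney cells, and in 5.85%, 5.98%, 15.96%, 7.27% and 4.01% of CD8-negative ones.

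Over the 9 pairs of sums in both organs, Klrk1 was higher in CD8-positive cells by 2.13 on the log2 scale (SE 0.27, adjusted p = 6.8e-05, 9 of 9 pairs) and Klrc1 by 2.92 (SE 0.31, adjusted p = 7.4e-06, 9 of 9 pairs). Klrd1 was higher by 1.99 (SE 0.29, adjusted p = 0.00029, 8 of 9 pairs), Klrc2, the activating NKG2C chain, by 3.04 (SE 0.62, adjusted p = 0.0050, 6 of 9 pairs) and Klre1 by 2.52 (SE 0.58, adjusted p = 0.012, 7 of 9 pairs). Klrg1 differed by 0.32 (SE 0.26, adjusted p = 0.53, higher in 4 of 9 pairs). Thus 5 of 6 receptors rose, where 3.66% of all 8529 genes tested were called higher. The pairs in which Klrc2 or Klre1 was not higher were all spleens. CD8-positive spleen cells of KO1, KO2, WT1 and WT3 held 0, 2.83, 0 and 0 CPM of Klrc2, against 0.43, 0.18, 1.20 and 0.13 CPM in CD8-negative ones. For Klre1 they held 0, 1.41, 3.46 and 0 CPM against 0, 0.73, 3.31 and 1.34 CPM. Kidney and spleen of a mouse entered as separate pairs. The calls of Klrc2 and Klre1 were lost once cells with 2 or more UMIs of other cell types were left out (2.48, adjusted p = 0.45, and 2.56, adjusted p = 0.36), and that of Klre1 also without KO1 (2.33, adjusted p = 0.054). CD8-positive cells were deeper, with medians of 3652.5 to 8243 UMIs against 3157.5 to 3625.5. In cells thinned to 1500 UMIs, with 16 sums in place of 18, 3 of the 6 receptors were called. The class was set again from the thinned UMIs, so cells that lost their CD8 UMIs counted as CD8-negative.

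**Figure D1:**
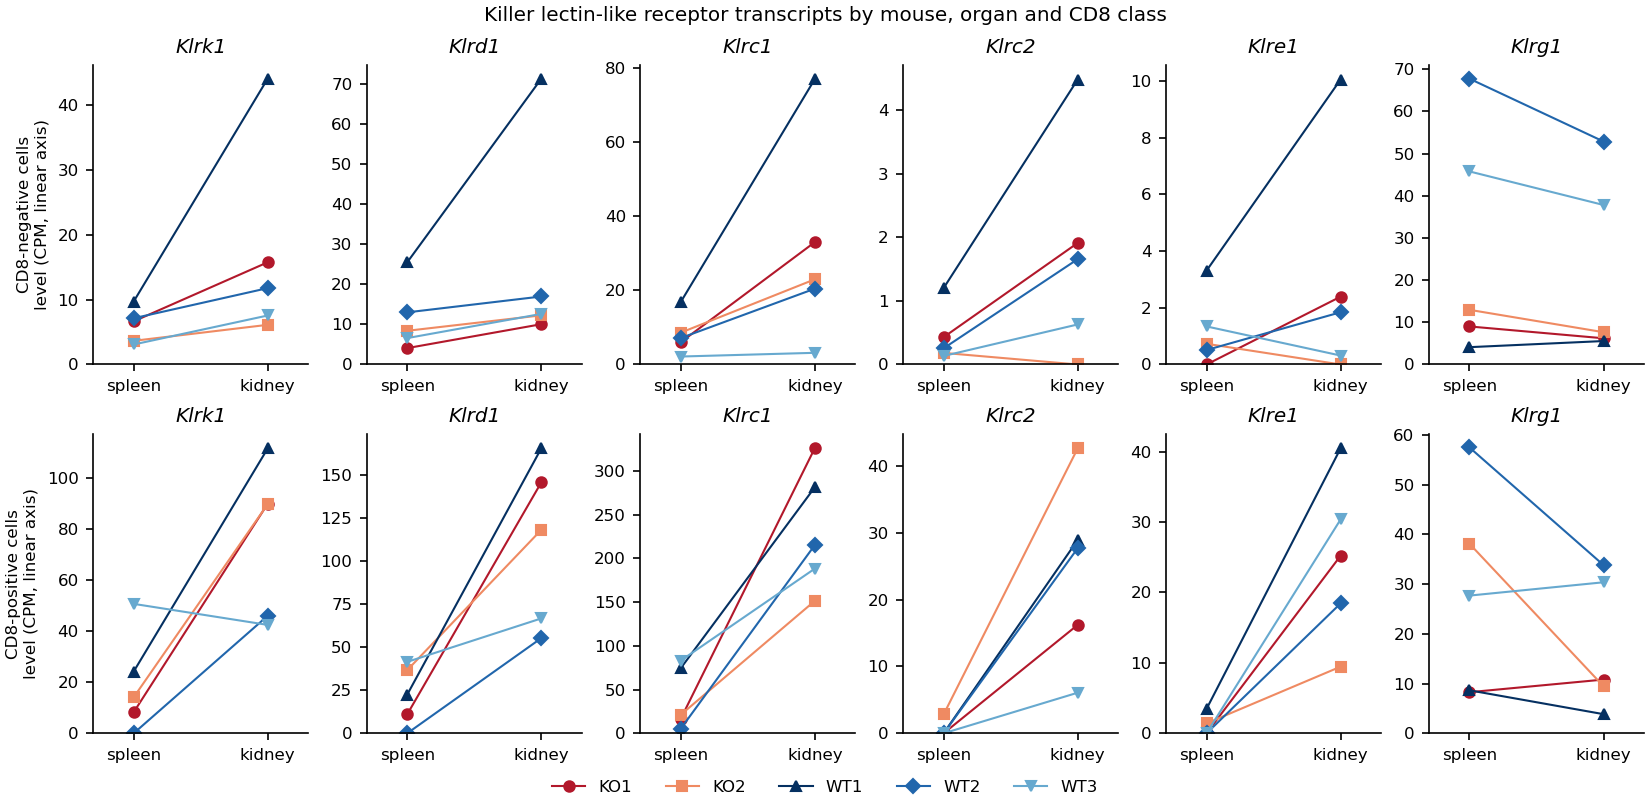
Level of each receptor in CPM on linear axes that start at 0, CD8-negative cells in the upper row and CD8-positive cells in the lower, with a line joining spleen and kidney of each of the 5 mice. In CD8-negative cells the lines of Klrk1, Klrd1 and Klrc1 rise toward the kidney in every mouse with WT1 highest, and those of Klrg1 are highest in WT2 and WT3. The CD8-positive spleen of WT2, with 18 cells, is drawn but entered no test.

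Genes of the cytotoxic machinery accompanied the receptors in the CD8-positive class. Of 16 tested genes of the list of granule and effector genes, 9 were higher and 1, Lamp1, was lower, among them Nkg7, a granule protein (log2 difference 1.10), the chemokines Ccl5 (1.06) and Ccl3 (1.04), and Cst7, the cathepsin inhibitor cystatin F (0.56). The inhibitory receptors Pdcd1 (1.15), Havcr2 (1.54), Lag3 (0.92) and Tigit (0.43) rose. Tcf7 and Lef1, transcription factors of naive and memory T cells, fell by 0.57 and 0.42, and the IL-7 receptor gene Il7r fell by 0.73, while the IL-2 and IL-15 receptor chain Il2rb rose by 0.38. Cd4 fell by 0.46. The γδ T cell receptor gene Tcrg-C2 rose by 2.10, and the part of γδ T cells in the receptor differences was not tested. Leaving out KO1 or KO2 ended the calls of Ccl3 (adjusted p = 0.20 and 0.17), Cst7 (0.081 and 0.069), Lef1 (0.24 and 0.11) and Tigit (0.14 and 0.19), leaving out KO2 that of Ccl5 (0.72, adjusted p = 0.19), leaving out KO1 those of Tcf7 and Tcrg-C2 (adjusted p = 0.053 and 0.052), and leaving out KO2 or WT1 that of Il2rb (0.054 and 0.057). Without cells holding UMIs of other types Cd4, Cst7, Havcr2, Il2rb, Il7r, Lef1, Tcf7 and Tigit were not called (adjusted p = 0.053 to 0.79).

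The second comparison set the kidney, the target organ of lupus nephritis, against the spleen of the same mice. CD8-negative cells of the kidney held more Klrk1 than those of the spleen, and Klrd1 and Klrc1 were higher in the kidney of every mouse without passing the unpaired test. In the spleen, Klrk1 stood at 6.66, 3.65, 9.72, 7.13 and 3.09 CPM in KO1, KO2, WT1, WT2 and WT3, so that the kidney to spleen ratios ran from 1.65 in WT2 to 4.54 in WT1. Klrc1 stood at 6.02, 8.58, 16.8, 7.13 and 2.15 CPM in the spleens, and its ratios ran from 1.47 in WT3 to 5.49 in KO1. Klrd1 stood at 4.08, 8.40, 25.5, 13.0 and 6.58 CPM in the spleens, with ratios of 1.304 in WT2 to 2.80 in WT1. WT1 was the highest mouse for all 3 genes in both organs, and the 2 organs overlapped when all mice were pooled.

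Klrk1 was higher in the kidney by 1.60 on the log2 scale (SE 0.51, adjusted p = 0.049), Klrc1 by 2.00 (SE 0.70, adjusted p = 0.063) and Klrd1 by 1.11 (SE 0.54, adjusted p = 0.16). Klre1 differed by 1.41 (SE 0.87, adjusted p = 0.27), and Klrc2, with levels of 0 to 4.49 CPM, was too low to be tested. So 1 of 5 tested receptors was called higher, where 12.3% of all 11511 genes tested were. Klrk1, Klrd1 and Klrc1 were higher in the kidney of each of the 5 mice, as were 17.7% of all genes. The kidney and spleen of a number come from the same animal, and with the mouse as a block Klrk1 (1.46, adjusted p = 0.0019), Klrd1 (1.06, adjusted p = 0.0027) and Klrc1 (1.90, adjusted p = 0.00021) were all called. The block raised the calls among all genes too, to 1905 called higher in the kidney of 11967 tested, from 1417 of 11511. Without the block the Klrk1 call was lost on leaving out KO1 (1.60, adjusted p = 0.13), KO2 (1.63, adjusted p = 0.11), WT2 (1.78, adjusted p = 0.079) or WT3 (1.59, adjusted p = 0.053), and among cells with a Cd4 UMI (1.67, adjusted p = 0.063), and Klrc1 was called without WT1 (1.84, adjusted p = 0.023) or WT3 (2.04, adjusted p = 0.021).

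Klrg1 ran the other way in most animals. It stood at 6.22, 7.66, 5.56, 52.9 and 37.8 CPM in the CD8-negative kidney cells of KO1, KO2, WT1, WT2 and WT3, and at 9.02, 13.0, 4.11, 67.8 and 45.8 CPM in those of the spleen. WT2 and WT3 were the high mice in both organs, and the kidney was the lower organ in 4 of 5 mice. The difference of -0.32 (SE 0.73, adjusted p = 0.80) did not pass the test, with the mouse as a block either (-0.20, adjusted p = 0.32).

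Klrc2 and Klre1 were rare in CD8-negative cells. Klre1 stood at 2.39, 0, 10.05, 1.84 and 0.32 CPM in the kidneys of KO1, KO2, WT1, WT2 and WT3 and at 0, 0.73, 3.31, 0.51 and 1.34 CPM in their spleens. Klrc2 stood at 1.91, 0, 4.49, 1.66 and 0.63 CPM in the kidneys and at 0.43, 0.18, 1.20, 0.25 and 0.13 CPM in the spleens. WT1 was highest for both genes in both organs. In the kidney of KO2 both were seen in 0 of 184 cells, which allows a share of up to 1.63% of cells with a UMI. This limits cells with a UMI, not cells that express the gene. CD8-positive kidney cells held 16.2, 42.6, 28.9, 27.7 and 6.08 CPM of Klrc2 and 25.2, 9.47, 40.5, 18.5 and 30.4 CPM of Klre1 in the same order of mice. The CD8-positive spleen sums held 0 to 2.83 CPM of Klrc2 and 0 to 3.46 CPM of Klre1. These levels rest on few UMIs in small sums, such as the 25 cells of kidney WT3. The spleen of WT2, with 18 cells, entered no test.

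As shares of CD8-negative cells with at least 1 UMI, Klrk1 was seen in 2.84%, 1.63%, 7.98%, 2.68% and 1.63% of kidney cells of KO1, KO2, WT1, WT2 and WT3, and in 0.949%, 0.696%, 2.26%, 2.21% and 0.856% of spleen cells. The Wilson 95% interval of the kidney KO2 share ran from 0.556% to 4.68%, and that of kidney WT1 from 6.73% to 9.43%. Klrd1 was seen in 2.37%, 2.72%, 10.6%, 3.74% and 2.49% of kidney cells and in 1.11%, 1.60%, 3.95%, 2.99% and 1.33% of spleen cells of the same mice. Klrc1 was seen in 3.16%, 3.26%, 7.85%, 2.75% and 0.651% against 0.791%, 0.905%, 2.26%, 1.33% and 0.570%. Kidney and spleen means were 3.35% and 1.39% for Klrk1, 4.39% and 2.19% for Klrd1 and 3.54% and 1.17% for Klrc1, each higher in the kidney in 5 of 5 mice. The exact permutation test over the 5 pairs gave p = 0.0625 for each, the smallest it can give (two-sided, adjusted p = 0.45 over 36 tests). Klrg1 was seen in 4.70% of kidney and 6.69% of spleen cells on average and was higher in the kidney in 0 of 5 mice by share. No sorted cell type here is known to lack these receptors, so a background share from free RNA could not be set beside them, and the median depths of 3157.5 to 3625.5 UMIs were similar across the sums. Intervals cover counting error only.

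**Figure D2:**
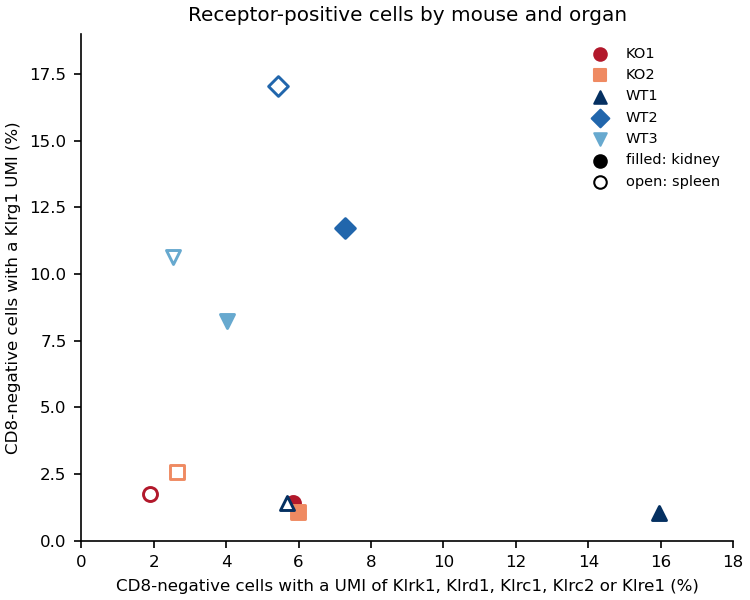
Percent of CD8-negative cells with a UMI of Klrk1, Klrd1, Klrc1, Klrc2 or Klre1 (horizontal axis) against the percent with a UMI of Klrg1 (vertical axis), 1 symbol per mouse, filled for kidney and open for spleen. The kidney of WT1 stands far to the right at 15.96% with 1.03% Klrg1, WT2 and WT3 stand highest for Klrg1, and both KO mice lie low on the Klrg1 axis.

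The same receptors were higher in the kidney among CD8-positive cells. Klrd1 stood at 146, 118, 166 and 66.8 CPM in the kidneys of KO1, KO2, WT1 and WT3 and at 11.0, 36.7, 22.5 and 41.5 CPM in their spleens. Klrc1 stood at 326, 151, 281 and 188 CPM against 16.5, 21.2, 74.4 and 83.1 CPM, and Klrk1 at 90.1, 89.9, 112 and 42.5 CPM against 8.27, 14.1, 24.2 and 50.8 CPM. Klrd1 and Klrc1 were higher in the kidney than in the spleen of each of these 4 mice, as were 15.7% of all genes tested. Klrk1 was lower in the kidney than in the spleen of WT3.

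Klrc1 was higher in the kidney by 2.35 (SE 0.35, adjusted p = 0.00088), Klrd1 by 2.05 (SE 0.36, adjusted p = 0.0031) and Klrk1 by 1.84 (SE 0.40, adjusted p = 0.011), and Klrg1 differed by -0.49 (adjusted p = 0.70). Of the 4 tested receptors 3 were called higher, where 5.42% of all 5591 genes were, and Klrd1 and Klrc1 were higher in every one of the 4 mice, as were 15.7% of genes. With the mouse as a block Klrc2 (4.49, adjusted p = 0.0057) and Klre1 (3.72, adjusted p = 0.0080) were tested and called as well, with 0 to 2.83 and 0 to 3.46 CPM in the spleen. Of all 7044 genes tested with this block, 311 were called higher in the kidney. The Klrk1 call was lost without KO1 (1.51, adjusted p = 0.10) or KO2 (1.57, adjusted p = 0.11), and the Klrk1 and Klrd1 calls were lost where CD8-positive cells needed 2 UMIs (1.49, adjusted p = 0.11, and 1.43, adjusted p = 0.056).

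Other genes of the pathway moved between the organs within the CD8-negative class. Among 13 tested adaptor and signalling genes, Fcer1g, an ITAM adaptor, rose by 1.08 in the kidney, as did the phosphatase SHIP1 gene Inpp5d (0.62) and Pik3r1, the regulatory subunit of PI3-kinase (0.93). Among 8 tested ligand genes 3 were higher and 2 lower: the NKG2D ligand gene Raet1e rose by 0.99, Cdh1, which encodes the KLRG1 ligand E-cadherin, by 3.96, while Clec2d and Clec2i, ligands of the NKR-P1 receptors, fell by 0.82 and 0.67. Kidney tubule cells also express Cdh1, and tubule markers were present in the WT kidney sums at the levels given above. Their part in the Cdh1 difference was not tested. The Fcer1g call was lost without KO2, WT2 or WT3 (adjusted p = 0.071, 0.080 and 0.053) and the Inpp5d call without KO1, KO2 or WT2 (adjusted p = 0.059, 0.085 and 0.056).

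Of 16 tested effector genes, Fasl (1.39), the granule protease gene Ctsw (1.13) and the granzyme B inhibitor gene Serpinb9 (1.86) were among those higher in the kidney, and Cst7 was lower (-0.78). Among 15 regulators, Runx3 (0.86) and Nfil3 (0.96), transcription factors of cytotoxic and NK cell programmes, were higher, and Lef1 (-0.53) and Bcl11b (-0.27) were lower. Of 10 cytokine receptor chains, Il2rb (0.63), Il18rap (1.25), Il12rb2 (2.04) and Il21r (0.90) were higher. Cd160, an inhibitory receptor of cytotoxic cells, was lower (-2.15). The median over all genes was -0.04. Leaving out KO1 or KO2 ended the calls of Runx3 (adjusted p = 0.080 and 0.087), Nfil3 (0.094 and 0.056), Il18rap (0.067 and 0.065), Lef1 (0.11 and 0.085) and Bcl11b (0.13 and 0.072), and leaving out WT3 also those of Lef1 (0.066) and Bcl11b (0.10).

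In CD8-positive cells the kidney was higher in 5 of 14 tested effector genes, including granzyme B (Gzmb, 1.74), Nkg7 (0.80), Fasl (1.14) and Ctsw (0.90). Id2, a regulator of effector and NK cell differentiation, was higher (1.26), and Tcf7 (-1.17), Lef1 (-1.10) and Bcl11b (-0.68) were lower. Il2rb (0.96), Il21r (0.98), Pdcd1 (1.14), Tigit (0.91) and Pik3r1 (0.72) were higher and Clec2i was lower (-1.76). Without KO1 the calls of Gzmb, Nkg7, Fasl, Ctsw, Lef1, Bcl11b, Pdcd1, Tigit (0.55), Pik3r1 and Clec2i were lost (adjusted p = 0.051 to 0.26). Leaving out KO2, WT1, WT2 or WT3 in turn ended, in at least 1 case each, those of Nkg7, Fasl, Lef1, Bcl11b, Pdcd1, Pik3r1 and Clec2i (adjusted p = 0.053 to 0.16), and the mouse as a block ended those of Pik3r1 (0.73, adjusted p = 0.053) and Clec2i (-1.67, adjusted p = 0.051).

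The third comparison set KO against WT mice, the question for which the animals were made. No receptor passed the test in either organ or class. In simulated counts these KO to WT fits recovered 4% to 26% of 2-fold differences. A missing call therefore does not show equal levels. In CD8-negative kidney cells the 2 KO mice lay within the WT range for Klrc1, with 33.0 and 22.97 CPM against 3.15 to 77.0 CPM, and 1 of them, KO2 with 6.13 CPM, lay below the WT range of 7.57 to 44.1 CPM for Klrk1. Klrd1 stood at 10.0 and 12.3 CPM in the KO kidneys and at 71.2, 16.9 and 12.6 CPM in the WT kidneys, so the genotypes did not overlap, though WT3 lay close to KO2. The means were 11.0 ± 6.83 CPM (SD, n = 2) in KO and 21.2 ± 20.0 CPM (n = 3) in WT for Klrk1, 11.1 ± 1.56 and 33.6 ± 32.7 CPM for Klrd1, and 28.0 ± 7.09 and 33.5 ± 38.6 CPM for Klrc1. The large WT spread came with WT1.

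The log2 difference of KO from WT in CD8-negative kidney cells was -0.74 for Klrk1 (SE 0.85, adjusted p = 0.75), -1.60 for Klrd1 (SE 0.92, adjusted p = 0.51) and -0.18 for Klrc1 (SE 1.06, adjusted p = 0.98). Klrc2 and Klre1 were too low to be tested. edgeR called 0 of 4 receptors and 0.0% of all 10388 genes, 1259 genes had an unadjusted p under 0.05, and DESeq2 called 97 genes. Of the 4 receptors only Klrd1 separated the genotypes, as did 34.7% of all genes. Without WT1 the difference was 0.41 for Klrk1, 1.28 for Klrc1 and -0.41 for Klrd1, so the first 2 changed sign.

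In the spleen the difference was -0.37 for Klrk1 (adjusted p = 0.77), -1.26 for Klrd1 (adjusted p = 0.37) and -0.26 for Klrc1 (adjusted p = 0.89), again with 0 of 4 receptors called, where 0.355% of all 11536 genes were. There 2105 genes had an unadjusted p under 0.05 and DESeq2 called 785 genes. No receptor separated the genotypes in the spleen, and 40.2% of all genes did. Without WT1 the Klrk1 and Klrc1 differences became 0.08 and 0.79, and that of Klrd1 -0.58. The KO effect in the kidney minus that in the spleen was called for no receptor and for 0.0% of 11967 genes by edgeR (461 with an unadjusted p under 0.05), and DESeq2 called 1 gene.

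The Klrg1 difference between genotypes came with the high levels of WT2 and WT3, and whether it was called depended on WT1. Its kidney mean was 6.94 ± 1.02 CPM in KO (n = 2) and 32.1 ± 24.2 CPM in WT (n = 3), and its spleen mean 11.0 ± 2.79 and 39.2 ± 32.3 CPM, with WT1 below both KO mice in either organ. The differences of -2.19 in the kidney (SE 1.05, adjusted p = 0.45) and -1.79 in the spleen (SE 1.07, adjusted p = 0.43) were not called. Without WT1 they were -2.72 (adjusted p = 0.0046) and -2.34 (adjusted p = 0.0014) and were called. Leaving out WT1 raised the number of genes called from 0 to 936 in the kidney and from 41 to 2465 in the spleen. Ezh2 itself was then called (-1.12, adjusted p = 0.012, and -1.67, adjusted p = 0.00030). WT1 had the lowest Klrg1 and Ezh2 of the WT mice in both organs. Leaving it out therefore favours the calls of these genes, which are no separate support for a KO effect. Klrg1 was seen in 11.7% (Wilson 95% interval 10.2% to 13.5%) and 8.24% (6.64% to 10.2%) of kidney cells of WT2 and WT3, against 1.03% (0.635% to 1.67%) in WT1, 1.42% (0.750% to 2.68%) in KO1 and 1.09% (0.299% to 3.88%) in KO2.

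**Figure D3:**
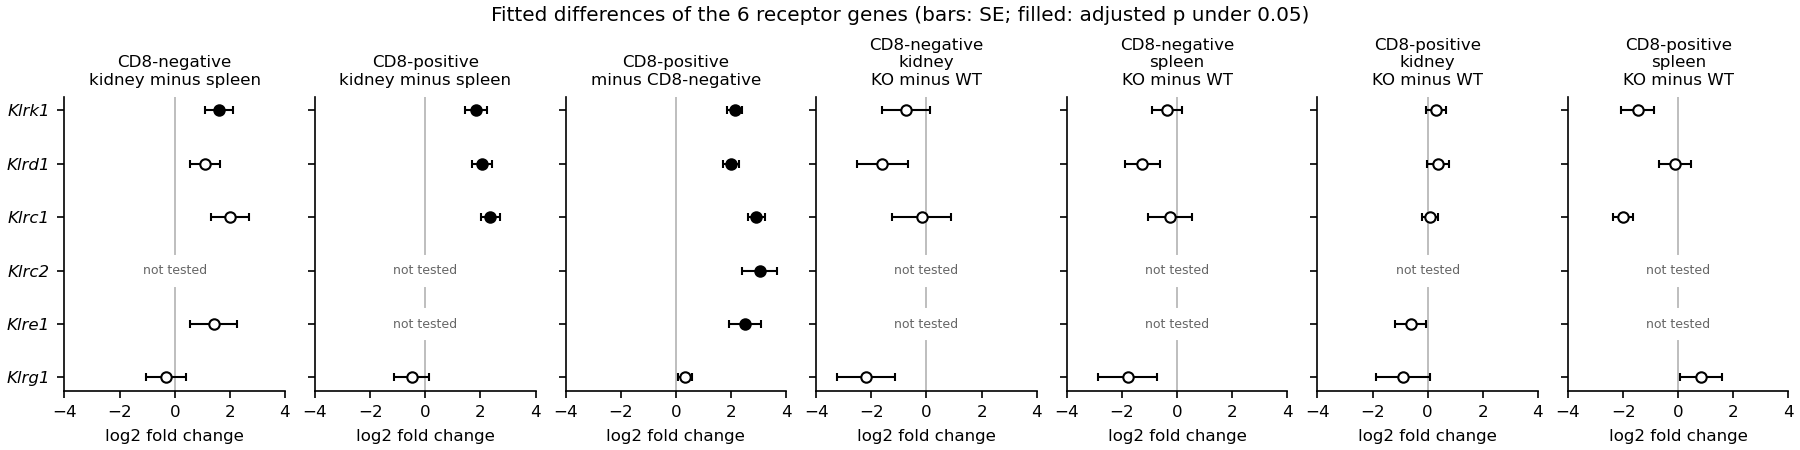
Log2 fold change of each receptor with its standard error in 7 comparisons, with filled points for an adjusted p under 0.05 and receptors too low to be fitted written as not tested. The points of Klrk1, Klrd1 and Klrc1 lie above 0 in the organ and class comparisons, and no point of the 4 KO to WT comparisons is filled.

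In CD8-positive kidney cells Klrk1 averaged 90.0 ± 0.101 CPM in KO and 66.8 ± 39.0 CPM in WT, a difference of 0.30, and Klrd1, Klrc1, Klre1 and Klrg1 differed by 0.38, 0.09, -0.62 and -0.90, all with an adjusted p of 1.00. The class was not made up alike: a Cd4 UMI was seen in 38.1% and 37.1% of these cells in KO1 and KO2. In WT1, WT2 and WT3 it was seen in 68.0%, 66.7% and 56.0%. The part of this in the KO to WT differences was not tested. Without WT1 the differences of Klrk1, Klrd1 and Klrc1 were 0.99, 1.17 and 0.29 (adjusted p = 0.39, 0.20 and 0.94), and Klre1 and Klrg1 were then too low to be tested. edgeR called 0 of 5 receptors there and 0.0197% of 5083 genes, with 198 at an unadjusted p under 0.05 and 5 genes by DESeq2. In CD8-positive spleen cells Klrc1 was at 16.5 and 21.2 CPM in the KO mice and at 74.4 and 83.1 CPM in WT1 and WT3, while WT2, whose 18 cells were left out of the test, was at 5.23 CPM and below both KO mice. This difference of -1.998 (SE 0.38, unadjusted p = 0.00040) had an adjusted p of 0.21 and was not called, as 0.0164% of 6092 genes were (314 with an unadjusted p under 0.05, 5 by DESeq2). It was called without a filter on low counts (-1.97, adjusted p = 0.0028). Without WT1 (-2.08, adjusted p = 0.011) and where the class needed 2 UMIs (-2.92, adjusted p = 2.8e-05) it passed the threshold with 1 WT library left, WT3 and WT1 respectively, which is assumed to vary like the KO libraries. It had an adjusted p of 0.68 once WT2 was taken in (-1.61). Klrk1 (-1.47), Klrd1 (-0.13) and Klrg1 (0.82) had adjusted p-values of 0.95 or more in this comparison, and without WT1 they stood at -2.08, -0.62 and -0.070 with adjusted p-values of 0.45 or more. The difference between the organs in the KO effect was called for none of the receptors and 0.0% of 6096 genes by edgeR (164 with an unadjusted p under 0.05, 0 by DESeq2). Klrc1 differed there by 2.08 (SE 0.51, adjusted p = 1.00), and it was called without the filter on low counts (2.09, adjusted p = 0.027).

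Among the other pathway genes, CD8-negative spleen cells of KO mice held less perforin (Prf1, -2.24, adjusted p = 0.032) and Eomes, the T-box regulator of cytotoxic genes (-2.55, adjusted p = 0.031), and more Lef1 (2.40, adjusted p = 0.021). Each of these 3 calls was lost on leaving out KO1, KO2, WT2 or WT3 (adjusted p = 0.087 to 0.59). Without WT1 all 3 were called, with Prf1 at -2.40, Eomes at -2.74 and Lef1 at 2.54. The effector list had a median difference of -2.53 in the spleen and -1.41 in the kidney, beside all-gene medians of -0.01 and -0.00. In the kidney none of the list passed the test; Nkg7 differed by -1.96 (adjusted p = 0.26), Ccl5 by -2.17, Gzmk by -3.29 and Ccl4 by -2.39. Without WT1 Nkg7 (-2.21, adjusted p = 0.00051), Ccl5 (-2.47, adjusted p = 0.016), Gzmk (adjusted p = 0.0013) and Ccl4 (adjusted p = 0.040) were called, each lower in KO. Among all genes 936 of 9941 in the kidney and 2465 of 11216 in the spleen were then called, against 0 and 41 with WT1. WT1 was the WT mouse closest to the KO values in Ezh2. The calls made without it are no separate support for a KO effect.

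The CD8-positive class was larger in every KO mouse than in any WT mouse of the same organ. It made up 11.7% and 15.98% of kidney cells in KO1 and KO2 and 4.60%, 3.48% and 2.64% in WT1, WT2 and WT3. The Wilson 95% intervals ran from 9.56% to 14.3% and from 11.7% to 21.4% in the KO mice, and the highest WT interval, that of WT1, ended at 5.73%. In the spleen it made up 4.53% and 9.11% in the KO and 3.39%, 1.95% and 1.96% in the WT mice. The genotypes did not overlap in either organ, with kidney means of 13.8% ± 3.02 (SD, n = 2) and 3.57% ± 0.986 (n = 3) and spleen means of 6.82% ± 3.24 and 2.43% ± 0.831. The exact permutation test gave p = 0.1 in each organ (two-sided, n = 2 and 3), the smallest p it allows, so 0.05 could not be reached. Once both classes were summed together, the KO to WT difference in the kidney was 0.30 for Klrk1, 0.057 for Klrd1 and 0.77 for Klrc1, so that the sign of all 3 depended on whether CD8-positive cells were counted in. The sort gates are a further difference that can set this share, and their part was not tested.

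Within CD8-negative cells, pooled over the mice of an organ, the receptors were found together. In the kidney 261 cells had a Klrd1 UMI, and 34.9% of them (Wilson 95% interval 29.3% to 40.8%) also had Klrk1 and 39.5% (33.7% to 45.5%) Klrc1, against 2.41% and 2.02% of cells without Klrd1. Of 198 kidney cells with Klrk1, 46.0% had Klrd1, against 3.77% of the others, and in the spleen the shares were 47.3% of 112 cells against 1.65%. Of 193 kidney cells with Klrc1, 53.4% had its partner Klrd1. Klre1 was seen in 39 kidney cells, of which 69.2% had Klrd1 and 71.8% Klrc1.

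Klrc2 was seen in 35 kidney cells, of which 34 (97.1%) had Klrc1 as well. Klrc1 and Klrc2 are close paralogs whose reads may be shared in counting, so this pair is uncertain. For Klrg1 the shares lay close to those of the other cells: of 269 kidney cells with Klrg1, 6.69% (4.27% to 10.3%) had Klrd1, near the 5.47% of cells without Klrg1, and 2.60% had Klrk1 against 4.30%. In the spleen 2.34% of 470 Klrg1 cells had Klrd1, against 2.28% of the others. Within single mice the share of Klrg1 among cells with any of the 5 other receptors was 3.23% against 0.613% of the remaining kidney cells in WT1, 15.5% against 11.4% in WT2, 8.11% against 8.25% in WT3 and 2.70% against 1.34% in KO1, and no such cell of KO2 had Klrg1 (11 cells). In the spleen it was 3.82% against 1.29% in WT1, 14.3% against 17.2% in WT2, 7.55% against 10.7% in WT3 and 8.33% against 1.61% in KO1, and no such cell of KO2 had Klrg1 (38 cells). The other shares pool the cells of 5 mice and are a description, with no test, and their intervals do not cover the spread between mice. Kidney cells with any of the 5 other receptors numbered 37, 11, 248, 103 and 37 in KO1, KO2, WT1, WT2 and WT3. WT1 thus weighed most in the pooled kidney shares.

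**Figure D4:**
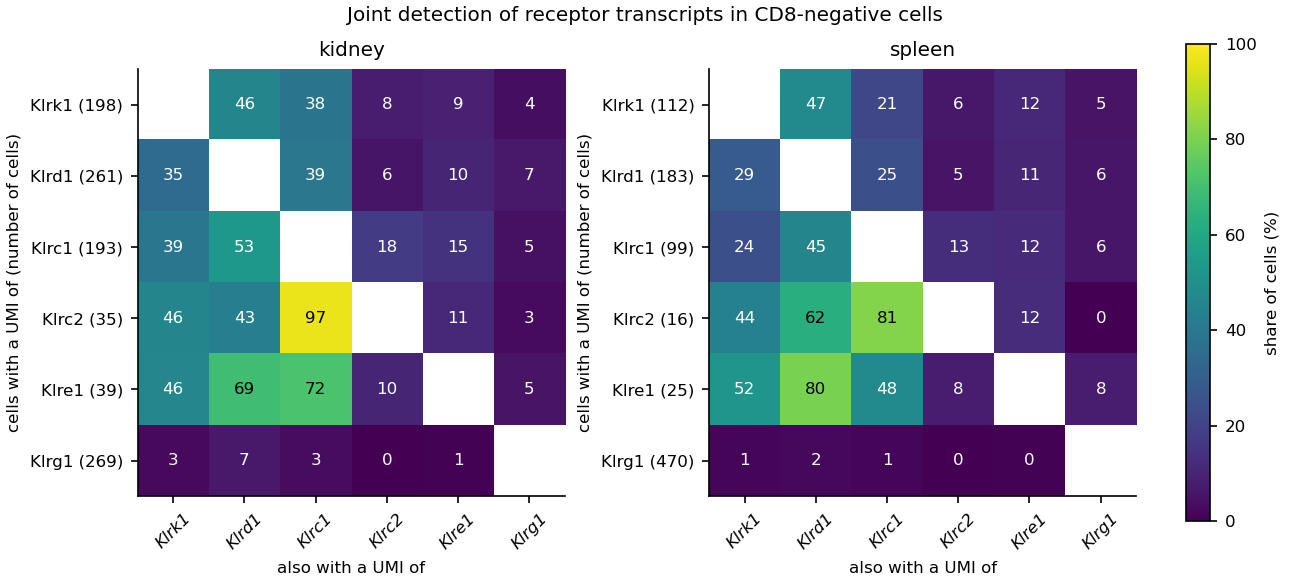
Percent of CD8-negative cells with a UMI of 1 receptor (rows) that also had a UMI of another (columns), for kidney and spleen. The high shares lie within the block of Klrk1, Klrd1, Klrc1, Klrc2 and Klre1, where some, such as that of Klrc2 in cells with Klrd1, are low too. The Klrg1 row and column stay at 8% or less.

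CD8-negative cells with and without a Klrd1 UMI were then compared within each mouse and organ, over 9 pairs of sums with at least 10 positive cells (kidney KO2 was left out). Kidney and spleen of a mouse entered as separate pairs here and in the fits of the next receptors, so the p-values measure the spread between libraries. The partner and neighbour receptors rose, with the smallest p of all genes for Klrc1 and Klrk1. Klrc1 was higher by 4.61 on the log2 scale (SE 0.26, adjusted p = 9.9e-17, 8 of 9 pairs), Klrk1 by 4.45 (SE 0.26, adjusted p = 3.3e-16, 9 of 9 pairs), Klre1 by 5.83 (SE 0.58, adjusted p = 1.5e-09, 6 of 9 pairs) and Klrc2 by 4.02 (SE 0.62, adjusted p = 2.2e-05, 6 of 9 pairs). Klrg1 differed by 0.45 (SE 0.32, adjusted p = 0.62). Thus 4 of 5 receptors other than Klrd1 rose, where 1.08% of 10659 genes were higher. Klri2 (6.63, 6 of 9 pairs) and Klri1 (6.41, 3 of 9 pairs), the partners of KLRE1, rose too.

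Beyond the receptors, 9 of 16 effector genes were higher in Klrd1-positive cells, including perforin (Prf1, 1.63, 8 of 9 pairs), granzyme A (Gzma, 4.04, 4 of 9 pairs), Ccl5 (1.64), Ccl3 (1.23), Nkg7 (1.10) and Fasl (0.57). Id2 rose by 0.72, whereas Tcf7, Lef1 and the Helios gene Ikzf2 fell by 1.02, 1.12 and 1.501. The receptor chains Il18rap (1.65), Il18r1 (0.67) and Il2rb (0.49) were higher and Il2ra, the high-affinity IL-2 receptor chain of activated and regulatory T cells, was lower (-1.17). Havcr2 (1.48), Pdcd1 (0.75) and Lag3 (0.58) were higher and Ctla4 was lower (-0.65). The kinase gene Syk rose by 2.71, the interferon-induced Ifitm1 by 3.32 and galectin-3 (Lgals3) by 1.61.

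γδ T cell receptor genes were among those higher in Klrd1-positive cells: Trgv2 by 2.90 (9 of 9 pairs), Tcrg-C1 by 3.41, Tcrg-C2 by 2.87 and Tcrg-C4 by 2.53. None of the 7 T cell markers, Cd4 among them, was called, and 73.9% of Klrd1-positive and 62.6% of Klrd1-negative kidney cells had a Cd4 UMI. What γδ T cells add to the receptor differences was not tested. Genes of other cells were lower: the tubule genes Miox (listed at 0 in the positive cells) and Gpx3 (-5.73), the plasma cell gene Jchain (-4.95) and the myeloid gene Lyz2 (-4.88). Ighv1-69, an immunoglobulin segment, was higher in 1 of 9 pairs and rests on that library. Leaving out 1 mouse ended the calls of Fasl, Il18r1, Il2ra (-0.56 without WT1), Il2rb, Pdcd1, Lag3, Tcrg-C1, Tcrg-C2 and Jchain (-1.17 without WT1). DESeq2 did not call Ccl5 (adjusted p = 0.064), Ccl3 (0.21), Ikzf2 (0.20), Syk (0.44) or Klri1 (0.69).

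The same comparison for Klrk1 gave a like picture of the neighbouring receptors. Klrd1 was higher in Klrk1-positive cells by 4.12 (SE 0.24, adjusted p = 1.4e-15, 9 of 9 pairs), Klrc1 by 3.95 (SE 0.28, 8 of 9 pairs), Klrc2 by 4.09 (SE 0.63, 6 of 9 pairs) and Klre1 by 4.74 (SE 0.60, 6 of 9 pairs), so that 4 of 5 receptors rose where 0.71% of 10845 genes did. Klrg1 differed by -0.55 (adjusted p = 0.66). In cells thinned to 1500 UMIs, over 10 sums in place of 18, Klrc2 was no longer called (2.77, adjusted p = 0.28). The NKG2D adaptor Tyrobp rose by 3.09 (5 of 9 pairs), Fcer1g by 2.47 (4 of 9 pairs) and Syk by 2.83. Tyrobp and Fcer1g are also NK cell markers. The marker counts given above are of all CD8-negative cells, not of the Klrk1-positive ones, and the part of NK cells in this difference was not tested.

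Of 16 effector genes 6 were higher in Klrk1-positive cells, with Ctsw at 1.11, Ccl5 at 1.07, Ccl3 at 1.06 and Nkg7 at 0.83. The IL-12 receptor chain Il12rb2 rose by 2.59, Il18rap by 1.60, Cd160 by 2.50, Havcr2 by 0.99 and the memory-cell antigen gene Ly6c2 by 2.23. Lef1 (-1.59), Tcf7 (-0.96), Ikzf2 (-0.97), Ctla4 (-0.58) and the OX40 gene Tnfrsf4 (-1.48) were lower. The Ikzf2 difference was -0.45 and that of Havcr2 0.69 without WT1, and Fcer1g was at 1.90 without WT1 and 1.65 without WT2. Leaving out KO1 or KO2 ended the calls of Ccl3 (adjusted p = 0.11 and 0.061), Ccl5 (0.17 and 0.086) and Nkg7 (0.15 and 0.076), leaving out KO1 that of Tcf7 (0.093) and leaving out WT1 those of Ctla4 (0.090) and Syk (0.27), and DESeq2 did not call Tyrobp (1.58, adjusted p = 0.81). Klrk1-positive cells were deeper, with median UMIs of 4051.5 against 3324 in the kidney. Thinned cells gave 42 calls in place of 197, over 10 sums in place of 18. Cells that lost their Klrk1 UMI in thinning counted as Klrk1-negative, so that depth, the class of a cell and the number of pairs changed together.

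**Figure D5:**
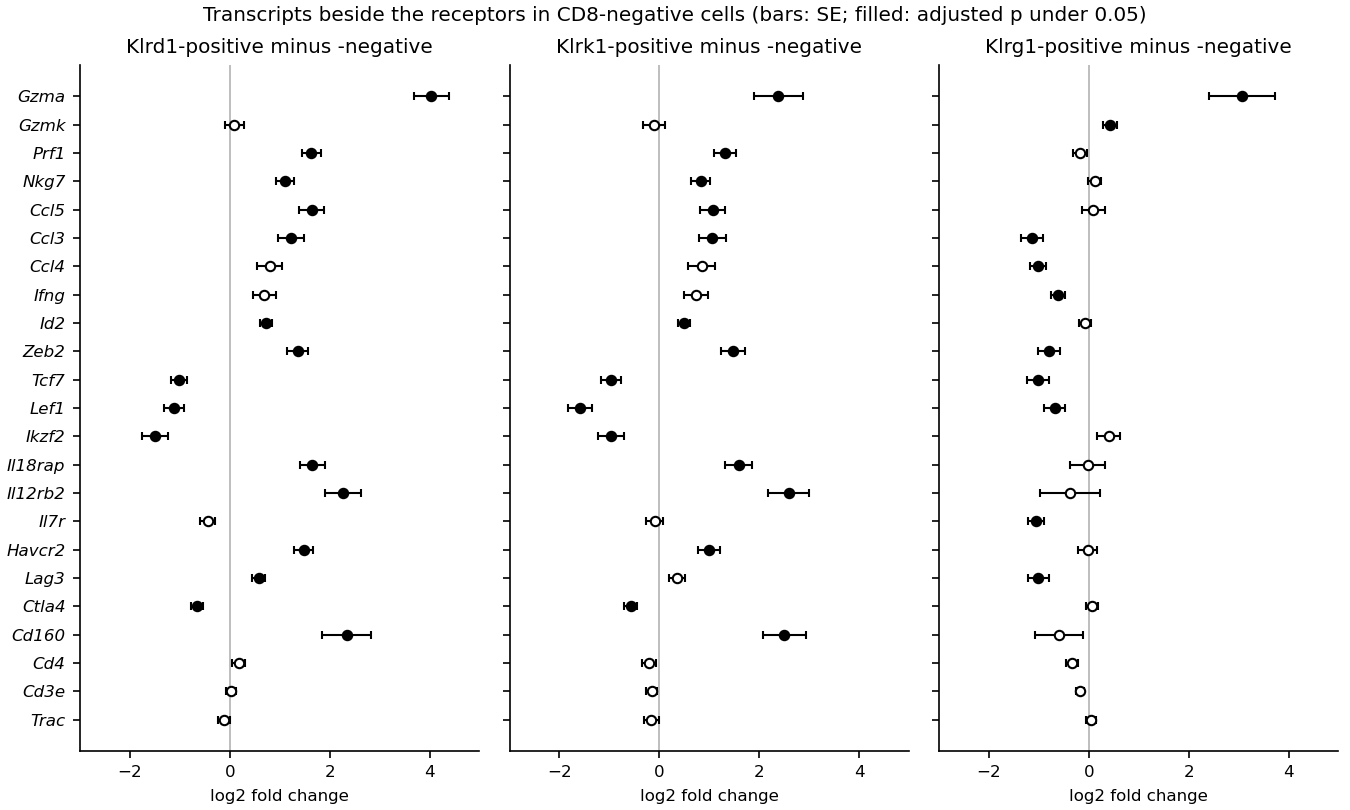
Log2 fold change with its standard error of 23 genes between CD8-negative cells with and without a UMI of Klrd1, Klrk1 or Klrg1, with filled points for an adjusted p under 0.05. Prf1, Nkg7, Ccl5, Ccl3 and Havcr2 are filled and above 0 beside Klrd1 and Klrk1, while Ccl3, Ccl4, Ifng and Lag3 are filled and below 0 beside Klrg1, and Tcf7 and Lef1 are below 0 in all 3 panels.

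Klrg1-positive cells were compared with Klrg1-negative cells in the same way. Over 8 pairs (kidney KO1 and KO2 were left out, with fewer than 10 positive cells), no other receptor was called: Klrk1 differed by -0.69, Klrd1 by -0.05, Klrc1 by -0.47 and Klre1 by 0.03, while 11.2% of 10712 genes were called in either direction. Without WT1, whose 5 receptors were high and Klrg1 low, Klrk1 (-1.61, adjusted p = 0.033) and Klrd1 (-1.31, adjusted p = 0.028) were called lower. Among the 10 genes higher with the smallest p were the survivin gene Birc5 (2.52), the replication factor gene Pclaf (2.50), the cyclin gene Ccna2 (2.29), the spindle protein gene Tpx2 (2.10), the ribonucleotide reductase gene Rrm2 (2.02) and Mki67 (1.98), of which most lost the call in thinned cells, as given in the next paragraph. Ezh2 was higher by 0.56 (adjusted p = 0.0043), a call lost without WT2 or WT3.

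Klrg1-positive cells were the deeper cells, with median UMIs of 4232 against 3311.5 in the kidney and 4318 against 3341 in the spleen. In cells thinned to 1500 UMIs, 82 genes were called in place of 1195, over 14 sums in place of 16. The classes were set again from the thinned UMIs, so cells that lost their Klrg1 UMI counted as Klrg1-negative. In kidney WT2 the CD8-negative cells with a Klrg1 UMI fell from 166 to 72. Depth, the class of a cell and the number of sums thus changed together, and their parts cannot be told apart. The calls of Mki67 (0.39, adjusted p = 0.76), Pclaf (0.15), Tpx2 (0.88) and Rrm2 (0.62) were then lost and Ezh2 stood at -0.50. Birc5 (1.69, adjusted p = 0.024), galectin-1 (Lgals1, 0.58, adjusted p = 0.035, 1.20 before thinning) and Igfbp4, an IGF-binding protein gene of naive T cells (-5.31, and -4.51 before thinning), were still called.

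Among the pathway genes in the unthinned cells, Gzmk was higher by 0.42, and Ccl3 (-1.14), Ccl4 (-1.02), Ifng (-0.61), Lag3 (-1.01), Tcf7 (-1.02), Lef1 (-0.68), Zeb2 (-0.80), Il7r (-1.06), Il18r1 (-0.97) and Il21r (-0.37) were lower. The ligand gene Cdh1 differed by -1.47 and the adaptor gene Fcer1g by -1.38, both called lower. The Gzmk call was lost without KO1, KO2, WT2 or WT3 (adjusted p = 0.057 to 0.11), the Lef1 call without KO1, KO2, WT1 or WT2 (0.074 to 0.11) and the Fcer1g call without KO1, KO2, WT1 or WT3 (0.063 to 0.22). Without WT2 or WT3 the calls of Il18r1 (0.27 and 0.25), Il21r (0.29 and 0.10) and Zeb2 (0.093 and 0.11) were lost, and without WT2 that of Cdh1 (0.19).

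Across the 10 CD8-negative sums, log2 levels of Klrk1, Klrd1, Klrc1 and Klre1 had Pearson correlations of 0.64 to 0.83 with each other and of -0.61 to -0.28 with Klrg1. The 10 sums are 5 mice in 2 organs, WT1 was high for the first 4 genes, and the values are a description. The genes most alike were Rhbdf2 and Slco4a1 (r = 0.91 each) and Gstcd (0.86) for Klrk1, Cetn4 (0.92), Txndc5 (0.91) and 1110065P20Rik (0.90) for Klrd1, and Rbm3 (0.94), Anp32e (0.93) and Ppia (0.92) for Klrc1. For Klre1 they were Klri2 (0.93), whose product pairs with it, Fnbp1 (0.92) and Nadk (0.92), and for Klrg1 Bcas2 (0.97), Themis (0.96) and Arhgap10 (0.96).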

How the data were processed

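The authors deposited 1 matrix of whole UMI counts per organ, with 32285 gene rows and 10 tag rows and no normalization. The counts were made with Cell Ranger 7.1.0, per the file headers. The submitters' processing notes name Seurat 5.0.1 and mm10 (GRCm38) as well. The sources used here do not give further settings of alignment or cell calling. Of 13368 barcodes of the first day, 13 led by another tag were left out, and cells needed at least 200 genes and at most 10% mitochondrial UMIs. Tag numbers were joined to the key by its order. No doublet caller was run.

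Sums of at least 20 cells per mouse, organ and class were tested with edgeR 4.0.16 (quasi-likelihood test, TMM, filterByExpr, limma 3.58.1, R 4.3.3), with Benjamini-Hochberg adjustment over all genes tested and a threshold of 0.05. Fits of receptor-positive against receptor-negative cells used the mouse and organ as a block and at least 10 positive cells. The edgeR fits were tested on simulated counts. KO to WT fits recovered 24% and 26% of 2-fold differences in CD8-negative kidney and spleen, and 26% and 4% in CD8-positive. For 4-fold differences the shares were 78%, 86%, 88% and 79% in the same order. Fits of the difference between organs in the KO effect recovered 5% and 0% of 2-fold differences. The organ fits recovered 63% and 60%, and the class and receptor fits 51% to 91%. Shares were compared by exact permutation tests over mice (scipy 1.17.1). The members and gene lists were chosen with earlier results of these data known. Named genes were the members, up to 4 called genes of each list or otherwise its 4 with the highest CPM, the 3 genes most alike for each member, the 10 with the smallest p per direction in the receptor fits, and Cd8a, Cd8b1 and Ezh2. Kidney and spleen of a number are the same animal. Their deviations correlated at 0.025 for the KO mice and at 0.65, 0.61 and 0.28 for WT1, WT2 and WT3 over 11511 genes. Alternatives were DESeq2 1.42.0, RLE scaling, no filter on low counts, leaving out each mouse, cells without UMIs of other types, all deposited cells, cells with a Cd4 UMI, a CD8 class from 2 UMIs, thinning to 1500 UMIs and the mouse as a block. Pooling both CD8 classes and a minimum of 10 cells per sum were chosen after seeing the data. The p-values of the KO to WT fits within an organ and of the share tests measure the spread between these mice. The class and receptor fits, and the organ fits without the mouse as a block, took kidney and spleen of a mouse as separate. Their p-values measure the spread between libraries.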

Additional observations from a re-analysis of the deposited data

Results flagged for a closer look

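The barcodes of the second day, which could be given to no mouse because the same 2399 cells stood under several mice and both organs, also held receptor UMIs, and the comparisons did not use them. Klrk1 was seen in 11.7% of these cells, Klrd1 in 13.0%, Klrc1 in 9.96%, Klrc2 in 2.42%, Klre1 in 1.79% and Klrg1 in 1.83%. Each share lies above the limit that a count of 0 allows.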

How the results depend on the processing

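The groups hold 2 KO and 3 WT mice, 1 WT mouse stands apart, and the CD8-positive sums are small. The KO to WT differences of the receptors therefore rest on few libraries, while the class, Klrd1 and Klrk1 differences rest on 9 pairs and the Klrg1 differences on 8, which are kidney and spleen of the same 5 mice. Counts are of genes called unless members are named, with the value of the report in parentheses.

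With the replicate block of the mouse, which the shared animals allow, members called between the organs were 3 (1) in CD8-negative and 5 (3) in CD8-positive cells, genes called for the difference between organs in the KO effect were 3 (0) in each class, and Klre1 in that CD8-positive difference was -0.042 (0.54). Genes called between the organs were 3695 (2534) in CD8-negative and 425 (420) in CD8-positive cells. The block changed no other call of a member.

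DESeq2 called 97 (0) and 785 (41) genes for KO against WT in CD8-negative kidney and spleen cells, 5 (1) in each CD8-positive comparison, 1 (0) for the CD8-negative difference between organs, 134 (347) for Klrd1 and 84 (197) for Klrk1 pairs, and 2 (1) members between organs. It turned the sign of Igkv1-110 (2.92), Igkv17-127 (2.15), S100a8 (2.03) and S100a9 (2.95) in the Klrd1 pairs, of Igha (1.51), Igkv1-110 (3.35), Igkv17-127 (2.57) and S100a9 (2.38) in the Klrk1 pairs, and of Igkv1-110 (0.57) and Igkv17-127 (0.91) in the Klrg1 pairs. The cause was not tested. Without the filter on low counts 66 (0) and 349 (41) genes were called for KO against WT in CD8-negative kidney and spleen, 52 (1) and 111 (1) in CD8-positive, 775 (420) between organs and 19 (0) for their difference in CD8-positive cells, and 353 (197) in the Klrk1 pairs. Members called were then 2 (1) and 5 (3) between the organs in the CD8-negative and CD8-positive class, and 1 (0) each in the CD8-positive spleen and difference, and Klre1 in the Klrg1 pairs was -0.047 (0.033).

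Without cells holding UMIs of other types the KO to WT counts were 4 and 348 (CD8-negative kidney, spleen) and 2 and 0 (CD8-positive), the CD8-positive organ count was 184, and the class comparison gave 53 (624) genes and 3 (5) members. Klrc1 in the CD8-negative kidney turned to 0.37, Klrg1 between organs to 0.046, the KO effect differences of Klrd1 and Klrg1 to 0.013 and 0.88, Klrk1 in the CD8-positive kidney to -0.020 and Klrg1 between classes to -0.047. With both CD8 classes summed, a choice made after seeing the data, KO to WT in the kidney was 0.30 for Klrk1, 0.057 for Klrd1 and 0.77 for Klrc1, 4 (1) members were called between organs, and the differences of the KO effect were 0.63 for Klrk1 and 0.93 for Klrd1. Among cells with a Cd4 UMI, 129 (41) genes were called for the spleen, 0 (1) members between organs, 196 and 71 genes in the Klrd1 and Klrk1 pairs, and the Klrk1 difference of the KO effect was 0.084. A CD8 class from 2 UMIs gave 0 (1) genes in the kidney, with Klrc1 at -0.28 (0.09), 47 (1) genes and 1 (0) member in the spleen, where WT1 was the only WT library left, 64 (420) genes and 1 (3) member between organs and 3 (0) genes for the difference. Sums from 10 cells, also chosen after seeing the data, gave 0 (1) genes in the CD8-positive spleen and Klrd1 at 0.22 (-0.13). Thinning also set the CD8 and receptor classes again from the thinned UMIs. Thinning left fewer sums too, 16 (18) between classes, 10 (18) in the Klrk1 pairs and 14 (16) in the Klrg1 pairs. It gave 171 (624) genes and 3 (5) members between classes, 42 (197) in the Klrk1 pairs and 82 (1195) in the Klrg1 pairs, where Klrd1 was 0.24, Klrc1 0.28, Ezh2 -0.50 and Hist1h2ak -0.43, and the Klrc1 share difference of the kidney 0.32 points (-0.54).

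Leaving out a KO mouse leaves 1 KO library in a KO to WT comparison, and leaving out WT1 or WT3 leaves 1 WT library in the CD8-positive spleen, as for its highest gene count and its member called, so the lone library is assumed to vary like the others. Leaving out each mouse in turn, CD8-negative kidney KO to WT gave 0 to 936 genes, 0 to 1 members, Klrk1 -1.73 to 0.41 and Klrc1 -0.69 to 1.28. The spleen gave 0 to 2465 genes, 0 to 1 members, Klrk1 -0.86 to 0.078 and Klrc1 -0.73 to 0.79. Between organs, 1405 to 2603 genes and 0 to 2 members were called. The difference of the KO effect gave 0 to 2 genes, Klrk1 -0.89 to 0.29, Klrd1 -0.61 to 0.15, Klrc1 -0.47 to 0.54 and Klre1 -6.23 to 5.46. In CD8-positive cells the kidney gave 0 to 13 genes and Klrc1 -0.58 to 0.47, and the spleen 0 to 149 genes, 0 to 1 members, Klrd1 -1.38 to 0.30 and Klrg1 -0.070 to 1.59. Between organs they gave 187 to 388 genes, 2 to 5 members and Klrg1 -0.997 to 0.30, and for the difference Klrd1 -0.049 to 1.85 and Klre1 -2.19 to 2.85. Between classes 247 to 503 genes were called and Klrg1 was -0.11 to 0.56. The Klrd1 pairs gave 121 to 386 genes and Klrg1 -0.058 to 0.78, and the Klrg1 pairs 441 to 1132 genes, 0 to 2 members and Klrd1 -1.31 to 0.49. Share differences in the kidney were -3.09 to 0.082 points for Klrk1 and -2.09 to 1.51 for Klrc1, and -0.18 to 0.035 in the spleen for Klrc2.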
